A study of Rattus norvegicus with 6 samples.

Results

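The oligoadenylate synthetases (OAS) and the guanylate-binding proteins (GBP) are 2 families of interferon-induced defence proteins. They were followed here through 8 genes, Oas1a, Oas1b, Oas2, Oasl, Oasl2, Gbp2, Gbp4 and Gbp5, taken by symbol from a deposited table of 32623 rat genes. The table has a row for 7 of the 8, and no row carries the symbol Oas1b, which is therefore not analysed as a transcript. Primary ventricular cells of Sprague-Dawley rats, aged postnatal day 1 to 3 and labelled as cardiomyocytes, had been transfected with small interfering RNA, either the negative control (siNC, 3 libraries) or one against the RNA methyltransferase gene Mettl3 (siMETTL3, 3 libraries). The transfection lasted 24 h, and both groups then received lipopolysaccharide (LPS), the bacterial cell-wall component that activates innate immunity, for 6 h. One isolate, pooled from several rats, supplied every culture, so the p-values measure the spread between cultures or libraries of that isolate and may reflect technical variation. Libraries without LPS were not analysed here, so the response to LPS itself is not measured. The comparison asks how the 2 families differed in LPS-treated cultures when Mettl3 was knocked down.

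Both families are switched on by interferon through STAT and IRF transcription factors. OAS enzymes bind double-stranded RNA, a sign of viral infection, and make short oligoadenylates that act as a second messenger of antiviral defence. GBPs are large GTPases that gather on bacteria, on the vacuoles of parasites and on LPS-bearing membranes, and they act with the immunity-related GTPases and with inflammatory caspases. Cardiac muscle cells, fibroblasts and macrophages of the heart can all respond to interferon, so the level in a bulk culture is a sum over cell types.

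The binding motif through which interferon reaches these genes was looked for in their promoters, because the letters show what members have in common outside their expression. Promoters came from RefSeq on build GRCr8 and were matched by symbol for 7 of the 8 genes, all except Oas2. Each window is the 250 bases before the transcription start. The core of the interferon-stimulated response element, searched on either strand as 2 copies of GAAA with 2 bases of any kind between them, was present in 6 of the 7 (Oas1a, Oas1b, Oasl2, Gbp2, Gbp4 and Gbp5) and in 3.41% of all 33469 rat promoters of that length. The Oasl window held no match. The sequences below are given 5′ to 3′ on the strand of the gene, with the match in capitals and up to 20 bases on each side. A match on the opposite strand reads as 2 copies of TTTC, and 2 overlapping matches are shown as 1 run of capitals.
Oas1a, chr12:41330405-41330460, plus strand: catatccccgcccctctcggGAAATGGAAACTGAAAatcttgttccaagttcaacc
Oas1b, chr12:41395876-41395931, minus strand: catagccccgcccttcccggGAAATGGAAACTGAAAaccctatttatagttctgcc
Oasl2, chr12:47383307-47383356, minus strand: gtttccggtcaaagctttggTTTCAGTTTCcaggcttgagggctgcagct
Gbp2, chr2:234005676-234005725, plus strand: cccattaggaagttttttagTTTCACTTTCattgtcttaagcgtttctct
Gbp5, chr2:233910923-233910972, plus strand: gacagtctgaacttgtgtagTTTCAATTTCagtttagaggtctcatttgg
Gbp4, chr2:233978456-233978485, plus strand: tcatctggcaagaagcagggTTTCGATTTC
The Oas1a and Oas1b sequences share the same run of capitals and were identical at 45 of 56 positions (80.4%). The matches began 41 bases before the start of Oas1a, 59 before that of Oas1b, 151 before that of Oasl2, 31 before that of Gbp2, 56 before that of Gbp5 and 10 before that of Gbp4. A second motif, the gamma-activated site TTCNNNGAA (the same on both strands), was found in 2 of the 7 windows, those of Oas1a and Oas1b, against 7.67% of all promoters. A match is a description of the letters and not evidence that a factor was bound. Gbp4, whose values differed in direction from those of Gbp2 and Gbp5 (below), carries the same core letters. Among other family genes searched the same way, Oas1d, Oas1e, Oas1f, Oas1h and Gbp6 held no core match. Oas1i, Oas3 and Gbp7 held at least 1, and Gbp1 had a window with 3 matches and another with 0. Of these, Oas1f, Gbp6 and Gbp7 (as LOC685067) fell, and Gbp1 had a higher mean in siMETTL3 (below).

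The libraries held 71202469 to 76668751 counts each, so counting error was small for every member except Oas2. Replicates of a group differed far more than counting error gives, with a chi-square of 25.8 to 77.3 per degree of freedom. Mettl3, the targeted gene, was at 18.2, 17.2 and 15.4 FPKM (fragments per kilobase of transcript, scaled to library size) in the 3 siNC libraries and at 10.3, 10.6 and 9.90 FPKM in the 3 siMETTL3 libraries. Its groups did not overlap, and its log2 fold change was -0.80 (SE 0.079, edgeR adjusted p = 0.00293). Here and below, fold changes are siMETTL3 minus siNC from edgeR's quasi-likelihood test, fitted on the 13105 genes that averaged 1 FPKM or more over the 6 libraries, and the p-values are Benjamini-Hochberg adjusted over those genes with a threshold of 0.05. Values from limma on log2(FPKM + 1), which has no further scaling between libraries, are given beside them for the members, and for other genes and lists where its calls differ. Percentages of the siNC mean are ratios of mean FPKM, also without further scaling. They therefore do not convert exactly to the edgeR fold changes printed with them.

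Of the 7 members found, all were above the filter. In siMETTL3 cultures, 4 fell (Oas1a, Oasl, Gbp2 and Gbp5), to 73.7% to 79.3% of their siNC means, and none rose. Oasl2, Oas2 and Gbp4 did not pass the threshold. For all genes tested, the same fit called 864 lower (6.59%) and 444 higher (3.39%). Limma called 2 of the 7 lower, Oasl and Gbp5, and none higher, where it called 4.4% of all genes lower and 6.53% higher. The balance of higher to lower calls over all genes thus turned with the scaling, and the median over all genes was 0.003 in edgeR and 0.067 in limma (log2). DESeq2 called 5 members lower, the 4 named and Oasl2, where it called 10.6% of all genes lower and 7.71% higher. In FPKM, 5 members had every siMETTL3 library below every siNC library, which 11.5% of all genes tested also had. The median log2 fold change of the 7 members was -0.41. The members were chosen with earlier results of these data known, so these counts describe the families and are not independent evidence of their direction.

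**Figure D1:**
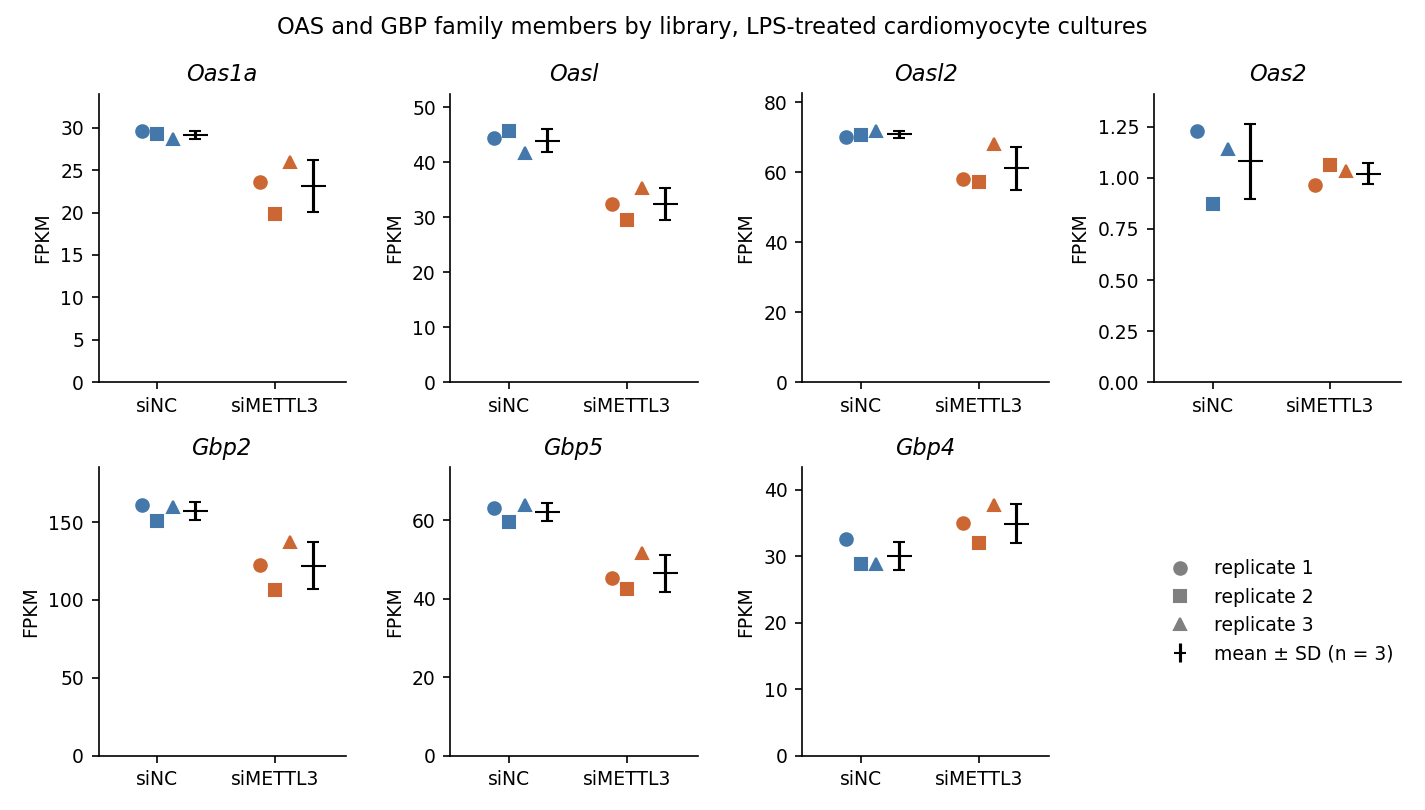
FPKM of the 7 members found (vertical axes, each from 0) in the siNC (blue) and siMETTL3 (orange) libraries, with a symbol for each replicate and the mean ± SD (n = 3) in black. The siMETTL3 points of Oas1a, Oasl, Oasl2, Gbp2 and Gbp5 all lie below the siNC points, and those of Oas2 and Gbp4 overlap them.

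The levels covered a wide range in FPKM, which is scaled to length. Reads shared between similar copies may affect the order of levels given here, and this was not tested. In siNC cultures Gbp2 had the highest mean at 157 FPKM, followed by Oasl2 at 70.7, Gbp5 at 62.3, Oasl at 43.9, Gbp4 at 30.1, Oas1a at 29.2 and Oas2 at 1.08 FPKM. The Gbp4 and Oas1a libraries overlapped, so these neighbours did not differ beyond their spread, whereas the libraries of every other neighbouring pair were separate. In siMETTL3 cultures the order was Gbp2, Oasl2, Gbp5, Gbp4, Oasl, Oas1a and Oas2. There the libraries of Gbp4 (32.0 to 37.8 FPKM) and Oasl (29.4 to 35.2 FPKM) overlapped.

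Among the synthetases, Oas1a, the founding OAS1 enzyme that makes oligoadenylates, lies at 12:41200718-41211909 on the plus strand in the coordinates of the table, whose genome build is not given in the sources used here. It was at 29.6, 29.3 and 28.7 FPKM in siNC (mean 29.2 ± 0.467, SD, n = 3) and at 23.6, 19.8 and 26.0 FPKM in siMETTL3 (mean 23.2 ± 3.10, SD, n = 3). The siNC libraries were close together and all lay above the siMETTL3 libraries, which were more spread out. The log2 fold change of Oas1a was -0.41 (SE 0.099, 95% interval -0.64 to -0.17, edgeR adjusted p = 0.0463), and limma gave -0.33 with an adjusted p of 0.0675. The Oas1a call is the least firm of the 4. When single libraries were left out it held only without siMETTL3 replicate 3 (adjusted p = 0.0379). Without siNC replicate 1, 2 or 3 the adjusted p was 0.149, 0.123 or 0.0772, and without siMETTL3 replicate 1 or 2 it was 0.125 or 0.0608, all by edgeR.

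Oas2, a larger synthetase of the same pathway (12:41340815-41363161, plus strand), was close to the filter. It was at 1.23, 0.874 and 1.14 FPKM in siNC and at 0.964, 1.06 and 1.03 FPKM in siMETTL3. The groups overlapped. For Oas2 the log2 fold change was -0.16 (SE 0.166, 95% interval -0.55 to 0.23, edgeR adjusted p = 0.571), an interval that includes the values of Oas1a, Oasl and Oasl2. A difference of that size was thus not detectable for Oas2.

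Oasl and Oasl2 are OAS-like proteins, which carry ubiquitin-like domains behind the synthetase fold. Oasl (12:47444104-47456894, minus strand) was at 44.5, 45.6 and 41.6 FPKM in siNC (mean 43.9 ± 2.09, SD, n = 3) and at 32.4, 29.4 and 35.2 FPKM in siMETTL3 (mean 32.4 ± 2.89, SD, n = 3). The highest siMETTL3 library was below the lowest siNC library. Oasl had the largest fall of the members, with a log2 fold change of -0.51 (SE 0.078, 95% interval -0.70 to -0.33, edgeR adjusted p = 0.0107). Limma gave -0.43 for Oasl with an adjusted p of 0.0215. The Oasl call was lost in edgeR without siNC replicate 1 (adjusted p = 0.0547) or without siMETTL3 replicate 1 (0.0504).

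Oasl2, its neighbour (12:47469598-47482961, minus strand), was the most abundant OAS gene. It was at 69.9, 70.6 and 71.7 FPKM in siNC (mean 70.7 ± 0.895, SD, n = 3) and at 57.9, 57.1 and 68.0 FPKM in siMETTL3 (mean 61.0 ± 6.08, SD, n = 3). The groups did not overlap, but siMETTL3 replicate 3 came close to the siNC libraries. For Oasl2 the log2 fold change was -0.29 (SE 0.076, 95% interval -0.47 to -0.11), which did not pass in edgeR (adjusted p = 0.058) or in limma (-0.21, adjusted p = 0.106). In DESeq2 it passed (adjusted p = 0.0118), as it did in edgeR without siMETTL3 replicate 3 (-0.37, adjusted p = 0.0253).

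Among the guanylate-binding proteins, Gbp2, which takes part in the attack on bacterial and parasite vacuoles, was the most abundant member (2:248276709-248293784, plus strand). It was at 161, 150 and 160 FPKM in siNC (mean 157 ± 5.87, SD, n = 3) and at 123, 106 and 137 FPKM in siMETTL3 (mean 122 ± 15.2, SD, n = 3). Every siMETTL3 library was below every siNC library. The log2 fold change of Gbp2 was -0.44 (SE 0.094, 95% interval -0.66 to -0.22, edgeR adjusted p = 0.0314), and limma gave -0.37 with an adjusted p of 0.0503, just outside the threshold. In edgeR the Gbp2 call was lost without siNC replicate 1, 2 or 3 (adjusted p = 0.114, 0.0691 and 0.0643) and without siMETTL3 replicate 1 (0.101).

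Gbp5, which is tied to activation of the NLRP3 inflammasome (2:248178389-248197160, plus strand), was at 63.1, 59.6 and 64.0 FPKM in siNC (mean 62.3 ± 2.32, SD, n = 3). In siMETTL3 it was at 45.2, 42.6 and 51.8 FPKM (mean 46.5 ± 4.74, SD, n = 3). The groups were well apart. Gbp5 had a log2 fold change of -0.49 (SE 0.080, 95% interval -0.68 to -0.31, edgeR adjusted p = 0.0135), and limma gave -0.42 with an adjusted p of 0.0249. The Gbp5 call was lost in edgeR without siNC replicate 1 (adjusted p = 0.0635) or without siMETTL3 replicate 1 (0.0613).

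Gbp4, a further GTPase of the family (2:248249468-248263168, plus strand), was the only member with a higher mean in siMETTL3. It was at 32.5, 28.9 and 28.9 FPKM in siNC (mean 30.1 ± 2.12, SD, n = 3) and at 35.0, 32.0 and 37.8 FPKM in siMETTL3 (mean 34.9 ± 2.91, SD, n = 3). One siNC library lay above the lowest siMETTL3 library. Gbp4 had a log2 fold change of 0.14 (SE 0.080, 95% interval -0.05 to 0.33, edgeR adjusted p = 0.304), and limma gave 0.21 with an adjusted p of 0.132, so a rise was not shown. The intervals of Gbp4 on one side and of Gbp2 and Gbp5 on the other did not overlap.

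The difference between these GBP genes was measured within each library as a ratio of FPKM, a comparison chosen after the values were seen. Gbp2 to Gbp4 was 4.95, 5.21 and 5.54 in siNC and 3.50, 3.33 and 3.62 in siMETTL3. Gbp5 to Gbp4 was 1.94, 2.07 and 2.22 in siNC and 1.29, 1.33 and 1.37 in siMETTL3. Both ratios were lower in each siMETTL3 library than in any siNC library, and scaling between libraries cannot move them. For each of the 2 ratios the exact two-sided permutation test gave p = 0.1, the smallest that 3 against 3 allows, and 0.1 after Benjamini-Hochberg adjustment, so this design cannot reach the threshold. Of the summed FPKM of the 3 genes, Gbp4 made up 11.4% to 12.7% in siNC and 16.7% to 17.6% in siMETTL3.

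**Figure D2:**
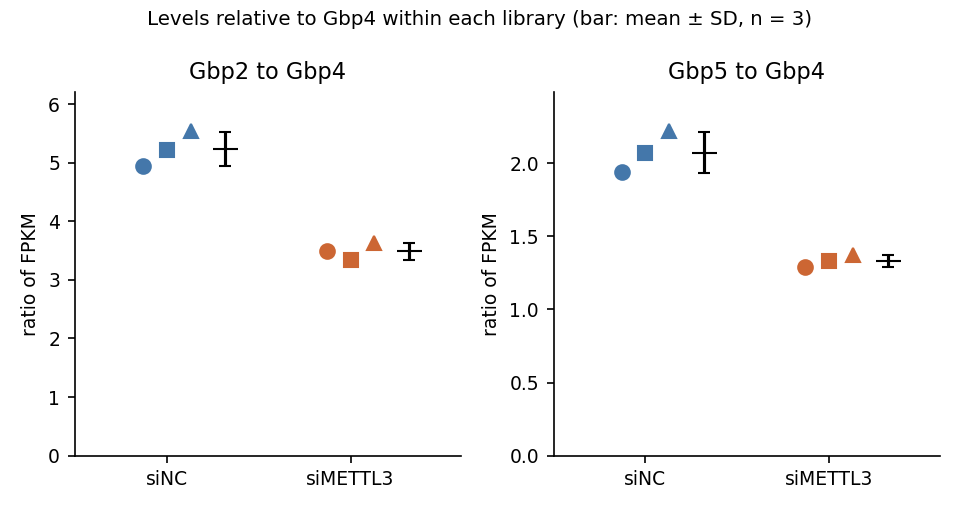
Ratio of Gbp2 to Gbp4 (left) and of Gbp5 to Gbp4 (right) in FPKM within each library, with a symbol for each replicate and the mean ± SD (n = 3) in black. The siNC ratios of Gbp2 to Gbp4 are 4.95 to 5.54 and the siMETTL3 ratios are 3.33 to 3.62, with axes from 0.

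The 3 siMETTL3 libraries did not contribute equally. Replicate 2 was the lowest of the group for 6 of the 7 members and replicate 3 the highest for 6 of the 7, including all 4 that fell in both cases. In siNC no library was lowest for more than 3 members. Summed over the 4 OAS members found, siNC libraries held 143 to 146 FPKM and siMETTL3 libraries 108 to 130 FPKM. The 3 GBP members summed to 239 to 257 FPKM in siNC and 181 to 226 FPKM in siMETTL3. Both sums were thus separate between groups, with a wider spread in siMETTL3.

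The rest of both families was read from lists of the other rat OAS and GBP symbols. Of 9 further OAS symbols, 7 had a row and 3 passed the filter. Oas1f and Oas1g, further copies of the OAS1 type, both fell. Oas1f was at 30.1, 29.2 and 27.5 FPKM in siNC and at 19.8, 17.6 and 23.6 FPKM in siMETTL3, a log2 fold change of -0.58 (SE 0.106, edgeR adjusted p = 0.0192). Its row, 12:41227825-41307285, wholly contains that of Oas1e, and in RefSeq the order along the chromosome is Oas1f, Oas1b, Oas1e. Whether reads of Oas1b were counted under Oas1f was not tested. The call for Oas1f was lost in edgeR without siNC replicate 1 (adjusted p = 0.0837), siNC replicate 2 (0.0597) or siMETTL3 replicate 1 (0.0761).

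Oas1g was at 25.8, 27.5 and 25.7 FPKM in siNC and at 17.4, 16.5 and 22.4 FPKM in siMETTL3. Its log2 fold change was -0.56 (SE 0.12, edgeR adjusted p = 0.0317), a call that held only without siMETTL3 replicate 3 when single libraries were left out (adjusted p = 0.011, against 0.0562 to 0.113). Oas1i, whose row is exactly as long as that of Oas1g (12009 bases), switched between absence and a level like that of Oas1g. Oas1i had counts of 3135, 3111 and 0 in siNC and 0, 0 and 944 in siMETTL3, where Oas1g had 3344, 3476 and 3093 in siNC and 2182, 2081 and 2749 in siMETTL3. With jumps from 0 to 3111 between replicates of a group, the Oas1i values (edgeR adjusted p = 0.449) carry no direction. The values of Oas1g are uncertain too, and whether reads were divided between the copies was not tested. With the counts of both summed as 1 gene, an alternative added after seeing the data, the log2 fold change was -1.07 (edgeR adjusted p = 0.0824), which did not pass. Among all genes tested, 87 had a count of 0 in 1 library and at least 100 in another of its group. None of the 7 members was among them, as each had reads in every library, although OAS1 and GBP copies are alike enough that shared reads may affect their rows too. Oas1h, Oas3 and Oas1e had means below 1 FPKM, and Oas1d had no count in any library.

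**Figure D3:**
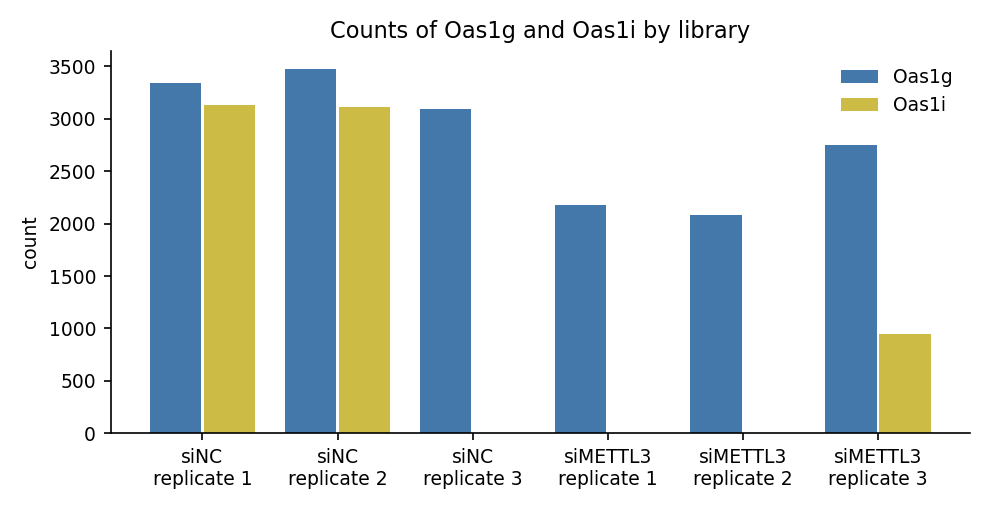
Counts (vertical axis, from 0) of Oas1g (blue) and Oas1i (yellow) in each of the 6 libraries. Oas1g has 2081 to 3476 counts in every library, whereas Oas1i has 0 in 3 of them and 3135 in siNC replicate 1.

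Of 8 further GBP symbols, 3 had a row and 2 passed the filter. Gbp6 fell, from 14.1, 11.5 and 15.5 FPKM in siNC to 8.16, 9.51 and 10.2 FPKM in siMETTL3 (log2 fold change -0.64, SE 0.13, edgeR adjusted p = 0.0284). That call held only without siNC replicate 2 when single libraries were left out (adjusted p = 0.024, against 0.0531 to 0.101). Gbp1 went the other way in value. It was at 36.7, 30.7 and 35.4 FPKM in siNC and at 42.4, 42.7 and 44.3 FPKM in siMETTL3, with no overlap. The log2 fold change of Gbp1 was 0.26 (SE 0.073, adjusted p = 0.0693) in edgeR, where it did not pass, and 0.33 (adjusted p = 0.0372) in limma, where it did, as in DESeq2 (0.26, adjusted p = 0.0214). The Gbp1 call moved with the scaling as well as the tool: it passed in edgeR with library totals only (0.34, adjusted p = 0.0342) and not in limma after median-ratio scaling (0.26, adjusted p = 0.0697). Gbp3 was below 1 FPKM.

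A row named LOC685067, whose number is the RefSeq gene ID of Gbp7, lies between Gbp5 and Gbp4 and was looked up after its values were seen. It was at 50.2, 47.2 and 58.7 FPKM in siNC and at 33.6, 35.6 and 39.5 FPKM in siMETTL3, a log2 fold change of -0.60 (SE 0.098, edgeR adjusted p = 0.0141). It lost its call in edgeR without siNC replicate 1 (adjusted p = 0.0518) or siMETTL3 replicate 1 (0.0613). In the order of the chromosome 2 cluster, Gbp5 and LOC685067 fell, Gbp4 was uncalled with a higher mean, Gbp2 fell, and the call of Gbp1 depended on the setting.

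**Figure D4:**
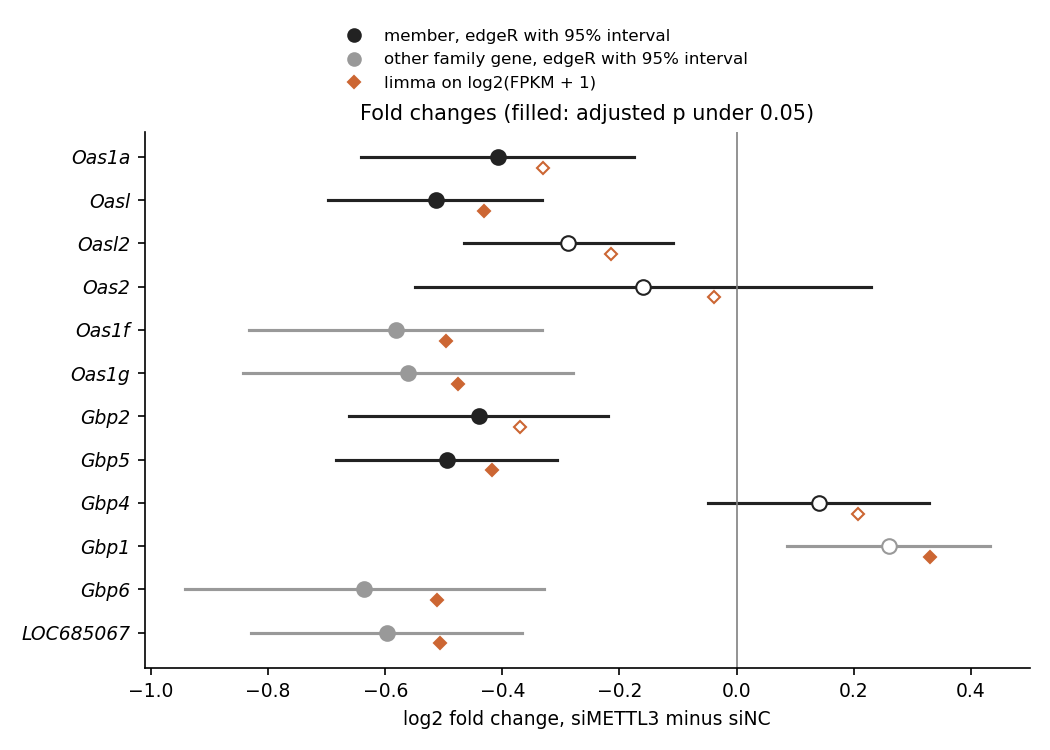
Log2 fold change, siMETTL3 minus siNC, of members (black) and other family genes (grey) with 95% intervals from edgeR, and of the same genes in limma on log2(FPKM + 1) (orange diamonds). Filled symbols are past the adjusted p of 0.05; Oasl, Gbp5, Oas1f, Oas1g, Gbp6 and LOC685067 are filled in both, and Gbp4 and Gbp1 lie to the right of 0.

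The genes that work with OAS were next. Of the 9 tested genes of the list for the response to double-stranded RNA, edgeR called 5 lower and none higher, and 4 did not pass, with a median log2 fold change of -0.35. Limma called 4 lower and 1 higher (median -0.22). The gene it called higher, named after its values were seen, was Mavs, the adaptor of the RNA sensors, which was 0.28 in limma (adjusted p = 0.0271), and 0.23 in both DESeq2 (adjusted p = 0.0161) and edgeR (adjusted p = 0.0588). Eif2ak2, the RNA-activated kinase PKR, went from 128 ± 8.58 to 91.2 ± 7.31 FPKM (SD, n = 3 in each group), a log2 fold change of -0.57 (edgeR adjusted p = 0.0087). The RNA sensors RIG-I (Ddx58, -0.62, adjusted p = 0.011), MDA5 (Ifih1, -0.61, adjusted p = 0.0122) and LGP2 (Dhx58, -0.49, adjusted p = 0.0124) were also among those that fell.

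Of the 8 tested genes of the list of immunity-related GTPases and inflammasome parts that act with GBPs, edgeR called 5 lower and none higher, with a median log2 fold change of -0.52. Limma called 3 lower and none higher (median -0.37), without Nlrp3 (-0.34, adjusted p = 0.0567) and Irgm (-0.39, adjusted p = 0.0512). The immunity-related GTPases Igtp, at 70.4% of its siNC mean (log2 fold change -0.58, edgeR adjusted p = 0.00987), and Ifi47, at 59.5% (-0.82, adjusted p = 0.0146), were among them. So were Casp4, the caspase that senses LPS inside cells, at 60.0% (-0.81, adjusted p = 0.0155), and Nlrp3, an inflammasome sensor, at 67.5% (-0.64, adjusted p = 0.0173). The fifth was Irgm, another GTPase, at 76.5% (-0.46, adjusted p = 0.0341), named after its values were seen. Irgm kept its call only without siMETTL3 replicate 3 when single libraries were left out (adjusted p = 0.00957, against 0.0659 to 0.116). Nlrp3 had a low mean of 1.86 FPKM in siNC, where the added 1 FPKM of the limma scale makes a fold change smaller.

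Upstream of both families, no gene of the interferon ligand list reached the filter. Of its 11 genes, 8 had a count of 0 in every library, which allows up to 3 counts in each. Ifnb1, the interferon beta gene, was at 0.472, 0.0881 and 0.277 FPKM in siNC and at 0.172, 0.0885 and 0.210 FPKM in siMETTL3, with overlap between groups and no test. Of 7 receptor and kinase genes, edgeR called 1 higher and none lower, and limma 2 higher, the second being the kinase gene Tyk2 (0.38, adjusted p = 0.046 in limma and 0.0592 in edgeR), named after its values were seen. The gene called by both was Ifnar1, a chain of the type I interferon receptor, which went from 19.4 ± 0.881 to 24.2 ± 0.742 FPKM (SD, n = 3 in each group), a log2 fold change of 0.24 (edgeR adjusted p = 0.0382). Of 9 STAT and IRF genes, 3 fell and none rose, among them Stat2 (-0.37, adjusted p = 0.0146) and Irf7 (-0.37, adjusted p = 0.024), both in edgeR. Stat2 encodes a factor that carries the interferon signal to response elements, and Irf7 is itself induced by interferon. Of the uncalled genes, 3 are named after their values were seen. In edgeR, Irf9 was -0.15 (adjusted p = 0.19, groups overlapping), Irf1 -0.25 (adjusted p = 0.0764) and Irf3 0.05 (adjusted p = 0.655). DESeq2 called Irf1 lower (adjusted p = 0.0311). Whether any of these factors acted on the members was not tested.

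Among 7 genes that restrain interferon signalling, 1 fell and 1 rose. Usp18, which removes ISG15 and blocks the type I receptor, went from 207 ± 13.3 to 139 ± 20.9 FPKM (log2 fold change -0.65, edgeR adjusted p = 0.0163). Socs3, an inhibitor of JAK kinases, went from 23.4 ± 3.06 to 36.7 ± 3.57 FPKM (0.58, adjusted p = 0.028). Of 5 tested genes of the LPS receptor list, 1 fell, the LPS co-receptor Cd14, at 64.4% of its siNC mean (-0.71, adjusted p = 0.00814). Of all genes tested, edgeR called 6.59% lower and 3.39% higher. Over these pathway lists and the other family genes together, 18 genes were called lower and 2 higher by edgeR. Without siNC replicate 1 these counts were 3 and 0, and without siMETTL3 replicate 1 they were 4 and 0. No member was called without either of those libraries, and all genes called went from 1308 to 344 and 395. Without siNC replicate 3 they were 1066, of which 2 were members. Of the pathway genes named, Eif2ak2, Igtp and Cd14 kept their call whichever single library was left out, with adjusted p-values of at most 0.047, 0.0496 and 0.0364 in edgeR, and each of the others lost it at least once. Ifnar1 and Socs3, the 2 called higher, kept theirs only without siNC replicate 3, with edgeR adjusted p-values of up to 0.137 and 0.0818 in the other fits.

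**Figure D5:**
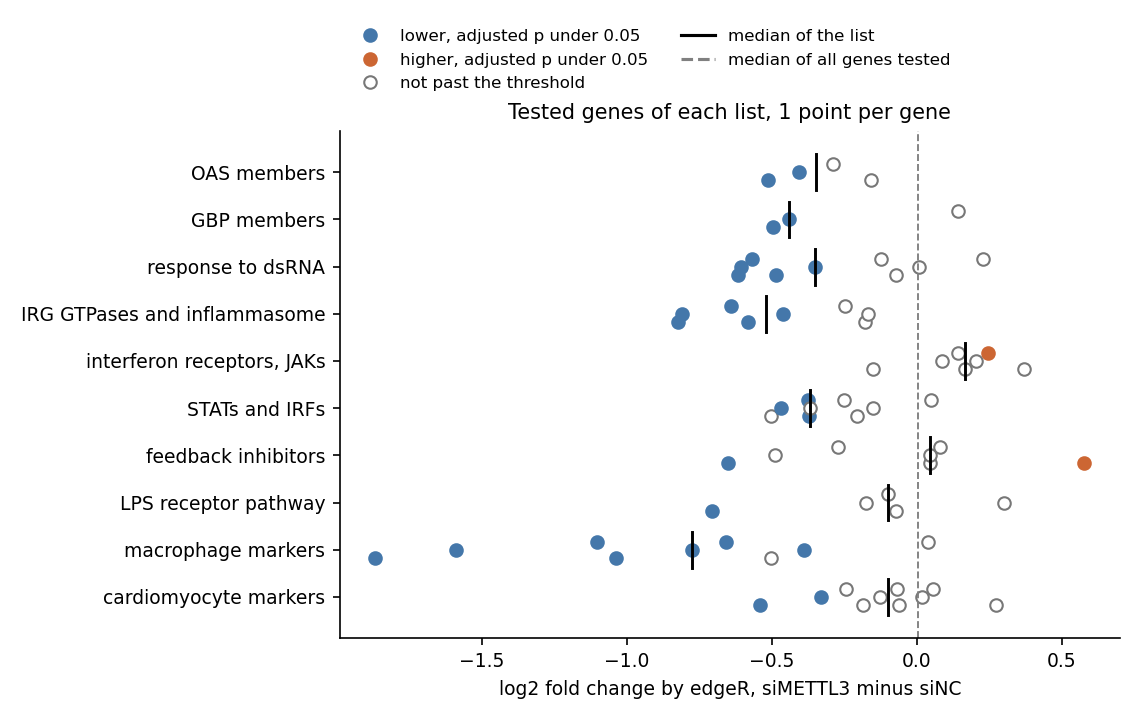
Log2 fold change, siMETTL3 minus siNC by edgeR, of each tested gene of the member and pathway lists and of the macrophage and cardiomyocyte marker lists. Blue is called lower, orange called higher and open not called, with a bar for each list's median and a dashed line for the median of all genes tested. The fibroblast, smooth muscle and endothelial markers and the other family genes are not drawn. Of the lists drawn, the macrophage markers have the lowest median (7 of 9 called lower), and that of the cardiomyocyte markers is around 0 (2 of 10 called lower).

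Markers of the cell types in the cultures were read beside these values. Cardiomyocyte markers were abundant, summing to 11610 to 12460 FPKM in siNC and 11260 to 12520 FPKM in siMETTL3 over 10 genes, of which edgeR called 2 lower and none higher. Those 2 calls depended on the setting. DESeq2 called 3 of the list lower and none higher, whereas none was called in limma or with no filter. In the 6 fits with a library left out, calls were made only without siNC replicate 3. Troponin T (Tnnt2), with means of 3662 and 4010 FPKM, and the myosin heavy chain Myh6, with means of 2303 and 2459 FPKM, did not pass. Macrophage markers were lower in siMETTL3, as were most fibroblast and smooth muscle markers (below). Of 9 macrophage markers tested, edgeR called 7 lower and none higher, limma 6 lower, and edgeR 4 lower without siNC replicate 1 or without siMETTL3 replicate 1. The 13 genes of the list summed to 85.4 to 104 FPKM in siNC and 46.8 to 60.7 FPKM in siMETTL3, 56.8% of the siNC mean. Examples are Lyz2, from 44.4 ± 3.49 to 22.8 ± 4.47 FPKM (log2 fold change -1.04, edgeR adjusted p = 0.0087), and Cd68, from 19.4 ± 3.10 to 11.9 ± 0.907 FPKM (-0.77, adjusted p = 0.014). The leukocyte markers Ptprc and Itgam stayed below 1 FPKM in every library. In bulk RNA, fewer cells of a type and less RNA per cell cannot be told apart.

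As with the fallen members, siMETTL3 replicate 2 had the lowest macrophage sum and replicate 3 the highest (53.8, 46.8 and 60.7 FPKM in the 3 libraries). Replicate 2 was also lowest for the cardiomyocyte (12520, 11260 and 11890 FPKM) and smooth muscle sums (2702, 2491 and 2632 FPKM), with replicate 1 highest. Replicate 3 was also highest for the fibroblast (884.5, 933.5 and 939.3 FPKM) and endothelial sums (53.2, 54.0 and 57.5 FPKM), with replicate 1 lowest. How many of all genes had the macrophage order was not counted. Lyz2 and Cd68, the most abundant of the macrophage list, had the order of its sum, but not every called marker did. Of 3 named after their values were seen, Adgre1 (1.28, 1.42 and 1.92 FPKM) and C1qa (1.57, 2.08 and 2.15 FPKM) were lowest in siMETTL3 replicate 1. C1qb (0.797, 0.777 and 0.490 FPKM) was lowest in siMETTL3 replicate 3. Fibroblast markers summed to 62.6% of siNC with 5 of 7 called lower in edgeR and 4 in limma (Col1a1, -0.74, and Col3a1, -0.92), and smooth muscle markers to 65.5% with 4 of 6 lower (Acta2, -0.67, and Tagln, -0.67). With single libraries left out, 3 to 4 fibroblast and 3 to 4 smooth muscle markers were called lower, and the fibroblast count was 3 without siNC replicate 1 or siMETTL3 replicate 2. Of 4 tested endothelial markers, edgeR called 2 higher and none lower. It called 1 higher in each fit with a library left out, except that without siNC replicate 3, where it called 2. Neither of the most abundant, Eng (-0.28, edgeR adjusted p = 0.0693) and Kdr (0.04, adjusted p = 0.808), was called. T and natural killer cell markers were at 0 counts throughout for 3 of 6 genes and summed to at most 0.544 FPKM in any library. The part of the non-muscle cells in the lower OAS and GBP values was not tested.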

How the data were processed

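Total RNA of 6 cultures was sequenced as paired ends, per the labels. Per the file headers, the authors deposited counts and FPKM for each library in 1 table; the aligner, annotation and build are not given in the sources used here. The submitters' processing notes name Bowtie 0.12.2 and a mouse build without a role. Counts were proportional to FPKM within 1% for 98.4% of values over the 14527 genes that had 20 or more counts in each library. That would arise with raw reads and also if counts had been made from coverage. It therefore cannot tell which they are, and they may not be raw reads.

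Counts of genes that averaged 1 FPKM or more were compared with edgeR 4.0.16 (TMM, quasi-likelihood) in R 4.3.3, with limma 3.58.1 on log2(FPKM + 1) beside it and DESeq2 1.42.0 as an alternative. The fits were tested on simulated data. Other scalings, filters and pseudocounts, and each library left out, were also run. Groups came from the sample titles.

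The members, the gene lists and the choice of edgeR as the main test were made with earlier results of these data known. That choice matters: edgeR called 4 members and limma 2. Genes named are the members, Mettl3, other family genes above the filter, up to 4 called genes per direction of each pathway list by adjusted p, the 2 most abundant markers per cell type, and the 5 genes most correlated with the members. Exceptions are stated. Values of 2 genes that the lists count are not reported here. The ranges of totals above give the depth; a count of 0 was read as up to 3 counts, for counting error only. Promoters were searched by exact letters.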

Additional observations from a re-analysis of the deposited data

How the results depend on the processing

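All members kept their direction under every alternative, although their calls often did not hold. Genes called numbered 1308 in edgeR, 2394 in DESeq2 and 344 to 1066 with single libraries left out. Members called lower were 4 in edgeR, 2 in limma with a pseudocount of 1 or 0.1, and 0 to 5 with single libraries left out. Genes of the family and pathway lists called lower were 18, and 3 to 15 with single libraries left out. Those called higher were 2, against 5 in DESeq2, with library totals only and in limma with either pseudocount, 1 with filterByExpr or no filter, and 0 to 2 with single libraries left out. With library totals only, 1026 genes were called higher and 630 lower, and the median over all genes was 0.078 (log2).

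Oas1a lost its call with library totals only (-0.33, adjusted p = 0.0657), filterByExpr (-0.41, 0.0533), no filter (-0.41, 0.0645), and limma with a pseudocount of 1 (-0.33, 0.0675) or 0.1 (-0.34, 0.069) or after median-ratio scaling (-0.40, 0.0501). Gbp2 lost its call in limma with a pseudocount of 1 (-0.37, 0.0503) or 0.1 (-0.37, 0.051). Oasl2 gained one in DESeq2 (-0.28, 0.0118). With single libraries left out, log2 fold changes ran from -0.50 to -0.31 for Oas1a, -0.58 to -0.45 for Oasl, -0.37 to -0.24 for Oasl2, -0.53 to -0.35 for Gbp2 and -0.58 to -0.43 for Gbp5. In these fits 3 uncalled markers changed sign: Tnnt2 (-0.002 to 0.13), Myh6 (-0.038 to 0.059, with -0.007 among them) and Kdr (-0.040 to 0.103, with -0.026 among them). Oas2 had no value with a filter of 5 FPKM. Except where shown above, the cause was not tested.

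The replicate numbers are not said to mark anything shared, and deviations of same-numbered libraries correlated at 0.035, -0.255 and -0.119. Not every library correlated best with its own number. With a replicate block, edgeR called 64 genes and limma 6 (an alternative added after seeing the data), with 0 members lower, and 0 genes of the family and pathway lists lower or higher, in both. Of the marker lists, edgeR with the block called 3 fibroblast markers lower. In the blocked fits of edgeR and limma, Oas1a was -0.42 (0.148) and -0.33 (0.176), Oasl -0.52 (0.0993) and -0.43 (0.137), Gbp2 -0.45 (0.0979) and -0.37 (0.14), and Gbp5 -0.50 (0.0719) and -0.42 (0.107). Mettl3 in blocked limma was -0.67 (0.0726).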

Other observations

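The genes outside the members whose levels followed theirs most closely over the 6 libraries belonged to neither the OAS nor the GBP family. The members themselves were left out of this ranking. Each of the 7 had equal weight in their mean, including Oas2, near the filter, and Gbp4, whose level was higher in siMETTL3. By Pearson's r of log2(FPKM + 1) with the mean of the 7 scaled members, the closest of 13098 genes were Btn2a2, a butyrophilin of immune cells (0.994), Serpine2, a serine protease inhibitor (0.993), Clec2g, a C-type lectin (0.984), Pgm3, an enzyme of amino sugar synthesis (0.984), and Galnt18, a glycosylation enzyme (0.983). An r of at least 0.95 was reached by 44 genes, and the 6 points share the same libraries and the same difference between groups. None of the 5 was called by edgeR, with adjusted p-values of 0.116 for Btn2a2, 0.0978 for Serpine2, 0.0549 for Clec2g, 0.0571 for Pgm3 and 0.0822 for Galnt18. Btn2a2 was at 1.65, 1.48 and 1.55 FPKM in siNC and at 1.19, 1.01 and 1.41 FPKM in siMETTL3. Its highest and lowest siMETTL3 libraries were those of the members that fell, a likeness that follows from how it was chosen.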
